A study of Mus musculus with 6 samples.

Results

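The immunoglobulin genes described here are the variable (V) segments of the heavy, kappa and lambda loci, together with the constant genes and Jchain. They were taken by name: every row of the deposited gene table whose name begins with Ighv, Igkv or Iglv, and the rows Ighm, Ighd, Igha, Ighg2b, Ighg3, Igkc, Iglc1, Iglc2, Iglc3 and Jchain. This gave 210 of 27763 rows, namely 106 Ighv, 91 Igkv and 3 Iglv segments and 10 constant genes and Jchain. Ighg1 and Ighg2c, which the rule also names, had no row under these names and were not analysed here. The heavy chain shares below leave them out. The rule reads gene names and no measured value, although it was set with earlier results of these data known. The table comes from poly(A) RNA sequencing of natural killer (NK) cells from spleens of wild type C57BL/6 mice aged 6 weeks. There were 3 libraries of the group called DN NK and 3 of the group called cNK, the cells it is set against, and both groups share strain, genotype, age and organ. What DN and c stand for, which surface markers were sorted on and whether each library was made from its own mouse are not given in the sources used here. The p-values below therefore weigh the group difference against the spread between these libraries, which may be technical.

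An antibody pairs heavy chains with kappa or lambda light chains. In developing B cells, RAG-driven V(D)J recombination joins 1 V segment to a J segment (with a D segment in the heavy chain), and the joined exon is spliced to a constant gene, so a population of B cells transcribes many different V segments. Ighm and Ighd encode the IgM and IgD heavy chains of naive B cells, Igha and the Ighg genes encode switched isotypes, and Jchain encodes the peptide that links IgM and IgA into polymers. Heavy chain constant genes can also be transcribed in lymphoid cells without a joined V segment, as germline transcripts, which a gene-level row does not separate from antibody mRNA. NK cells are innate lymphocytes that do not make antibody.

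The V segments on which the results turn are shown by the last 60 bases of their transcript, 5′ to 3′ on the coding strand, from GENCODE release M21 on GRCm38. This is the end that is joined to D or J. The capitals mark a match to TANTNNTG, which takes in the start of the conserved cysteine codon ahead of the junction. The match was found in the same window of 193 of all 200 V rows (96.5%), and on the other strand in 21 of them (10.5%), so it is a common feature of the segments and does not set any of them apart. The first 3 heavy segments had the highest mean levels in DN NK, and Ighv6-6 the highest mean level in cNK. All lie on the minus strand, at chr12:115920279-115920712, chr12:114788372-114788805, chr12:115158403-115158835 and chr12:114434788-114435244.
Ighv1-81: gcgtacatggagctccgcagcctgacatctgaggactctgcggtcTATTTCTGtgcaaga
Ighv1-26: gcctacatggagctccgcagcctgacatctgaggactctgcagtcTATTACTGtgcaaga
Ighv1-53: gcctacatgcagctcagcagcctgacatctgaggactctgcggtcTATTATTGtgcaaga
Ighv6-6: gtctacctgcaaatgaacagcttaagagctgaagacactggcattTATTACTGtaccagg
The kappa segments are 4 members of the Igkv8 family and Igkv6-15, which were among the highest in DN NK, and Igkv14-111, the highest in cNK. The first 5 lie on the minus strand at chr6:70117061-70117620, chr6:70171809-70172270, chr6:70314895-70315472, chr6:70216858-70217421 and chr6:70406469-70406992, and Igkv14-111 lies on the plus strand at chr6:68256389-68256869.
Igkv8-30: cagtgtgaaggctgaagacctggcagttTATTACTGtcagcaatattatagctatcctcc
Igkv8-27: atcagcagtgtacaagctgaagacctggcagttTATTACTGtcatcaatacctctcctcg
Igkv8-21: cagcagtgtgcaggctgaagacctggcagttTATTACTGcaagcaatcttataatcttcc
Igkv8-24: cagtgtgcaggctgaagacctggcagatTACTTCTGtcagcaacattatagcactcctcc
Igkv6-15: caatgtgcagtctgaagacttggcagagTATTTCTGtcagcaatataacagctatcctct
Igkv14-111: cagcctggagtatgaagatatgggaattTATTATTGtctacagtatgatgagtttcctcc
The lambda segments Iglv1 and Iglv2 lie on the minus strand at chr16:19085017-19085500 and chr16:19260401-19260859, and are shown because their transcripts were 96.7% identical.
Iglv1: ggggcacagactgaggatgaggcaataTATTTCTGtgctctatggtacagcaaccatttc
Iglv2: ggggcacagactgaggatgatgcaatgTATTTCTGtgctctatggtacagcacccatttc
Such similarity bears on every value below, since the counting could divide reads between near copies. A transcript at least 95% identical to another listed row was found for 54 of the 106 Ighv and 45 of the 91 Igkv rows. Ighv1-81, of 351 bases, was 96.7% identical to Ighv1-62-1 over the 90 bases of that shorter row, and Igkv1-117 was 97.5% identical to Igkv1-110, whereas Igkv8-30 was 92.7% identical to its closest row, Igkv8-21, and Igkv14-111 was 91.6% identical to Igkv14-126. Levels of single members of such families are uncertain to that extent.

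Levels are given in FPKM, the deposited fragment values, which allow for transcript length and for the depth of the library. The deposited counts summed to between 79798234 and 81437724 in DN NK and between 84270567 and 89526647 in cNK. They are estimated counts in which 1 read pair is worth about 3.77. On a V transcript of median length, 3 read pairs come to between 0.334 and 0.341 FPKM in the DN NK libraries and between 0.306 and 0.326 FPKM in the cNK libraries, and most V values in cNK lay below that. Differences were tested with edgeR's quasi-likelihood test across all rows that reached 1 FPKM in 3 or more libraries, with Benjamini-Hochberg adjustment and a threshold of 0.05. Of 11690 rows tested, 30.8% were higher and 30.9% lower in DN NK, so a call by itself was common. All 12 NK cell markers examined were tested and present in both groups, with summed levels of 2756 to 3201 FPKM in DN NK and 8245 to 8957 FPKM in cNK, and 11 of them were lower in DN NK. In bulk RNA, fewer cells of a type and less RNA per cell cannot be told apart.

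Ighm was the most abundant member in every library, ahead of Igkc by a narrower margin in DN NK than in cNK. It had 169.6, 136.0 and 126.3 FPKM in DN NK, against 93.8, 95.6 and 92.4 FPKM in cNK. The groups did not overlap, and the cNK libraries differed little among themselves. The difference was small beside those of the other constant genes, with a log2 fold change of 0.68 (SE 0.12, edgeR adjusted p = 0.00247). Ighd, the other isotype of naive B cells, had 5.76, 4.93 and 4.27 FPKM in DN NK, against 1.62, 2.34 and 2.17 FPKM in cNK, a log2 fold change of 1.35 (SE 0.17, edgeR adjusted p = 0.000191). Both heavy chain genes of naive B cells were thus detected in every cNK library.

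The switched isotypes had a different pattern. Igha, the IgA heavy chain, had 3.89, 1.73 and 1.88 FPKM in DN NK, against 0, 0 and 0.015 FPKM in cNK. That is 498 read pairs over the DN NK libraries and 1 read pair over the cNK libraries, a ratio of 535 (exact 95% binomial interval 95.6 to 21187, edgeR adjusted p = 0.000183). Ighg3 had 0.40, 0.29 and 0.097 FPKM in DN NK and 0 in each cNK library. Setting the whole cNK group at 3 read pairs, about the upper 95% limit of counting error for a count of 0, it was at least 17.9-fold higher in DN NK. Ighg3 was too low for the filter and passed in the same test run without it (edgeR adjusted p = 0.000101). Ighg2b had 0.022, 0.068 and 0 FPKM in DN NK and 0 in every cNK library, 6 read pairs in all, and did not pass (edgeR without the filter, adjusted p = 0.102).

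As a share of the summed heavy constant FPKM, Ighm made up 94.4, 95.1 and 95.3% in DN NK, against 98.3, 97.6 and 97.7% in cNK. Ighd made up 3.21, 3.44 and 3.22% in DN NK, against 1.69, 2.39 and 2.30% in cNK. Igha, Ighg2b and Ighg3 together made up 2.40, 1.46 and 1.49% in DN NK, against 0, 0 and 0.0155% in cNK. None of the 3 shares overlapped between the groups, so the larger Ighm level of DN NK went with a smaller Ighm share.

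The light chain constant genes showed a far wider gap than Ighm. Igkc, the only kappa constant gene, had 128.1, 82.5 and 76.6 FPKM in DN NK, against 6.34, 4.02 and 3.11 FPKM in cNK, 22.1-fold higher in DN NK (log2 4.47, SE 0.40, edgeR adjusted p = 0.000423). Iglc2 had 25.9, 15.7 and 15.6 FPKM in DN NK, against 0.61, 0.24 and 0.30 FPKM in cNK, 50.5-fold higher (edgeR adjusted p = 5.22e-05). Iglc3 averaged 8.70 ± 3.83 FPKM in DN NK and 0.287 ± 0.00855 FPKM in cNK (SD, n = 3 each), and Iglc1 averaged 6.77 ± 2.96 FPKM in DN NK and 0.300 ± 0.0554 FPKM in cNK. Their folds were 31.3 for Iglc3 and 22.2 for Iglc1, both past the threshold. Iglc2 and Iglc3 were 94.5% identical, so their separate levels are uncertain. Iglc1, Iglc3 and Iglv1 also overlap the antisense gene 2010309G21Rik, and Igkc overlaps the long noncoding RNA Gm30211 on the same strand, in libraries of a kit that does not mark strand. Jchain had 6.77, 4.03 and 3.78 FPKM in DN NK, against 0.46, 0.60 and 0.32 FPKM in cNK, a log2 fold change of 3.45 (SE 0.33, edgeR adjusted p = 0.000175).

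Set against Ighm within the same library, Igkc stood at 0.755, 0.606 and 0.607 of the Ighm FPKM in DN NK, against 0.0676, 0.0421 and 0.0336 in cNK. The cNK libraries thus held much heavy chain mu RNA with little light chain RNA. The summed Ighv level was likewise lower against Ighm in cNK, at 0.561, 0.408 and 0.388 of Ighm in DN NK, against 0.0738, 0.0708 and 0.0194 in cNK. Light chain V sums went the other way against their own constant genes, without overlap. The Igkv sum averaged 1.32 of Igkc in DN NK and 2.06 in cNK. The Iglv sum averaged 0.330 of the Iglc sum in DN NK and 0.886 in cNK. Among light chains, Igkc made up 72.4, 74.6 and 74.1% of the constant FPKM in DN NK, against 84.4, 81.9 and 78.6% in cNK. Iglc2 made up 14.6, 14.2 and 15.1% in DN NK, against 8.12, 4.95 and 7.51% in cNK, while the shares of Iglc1 and Iglc3 overlapped between the groups. No test was applied to these ratios and shares.

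**Figure D1:**
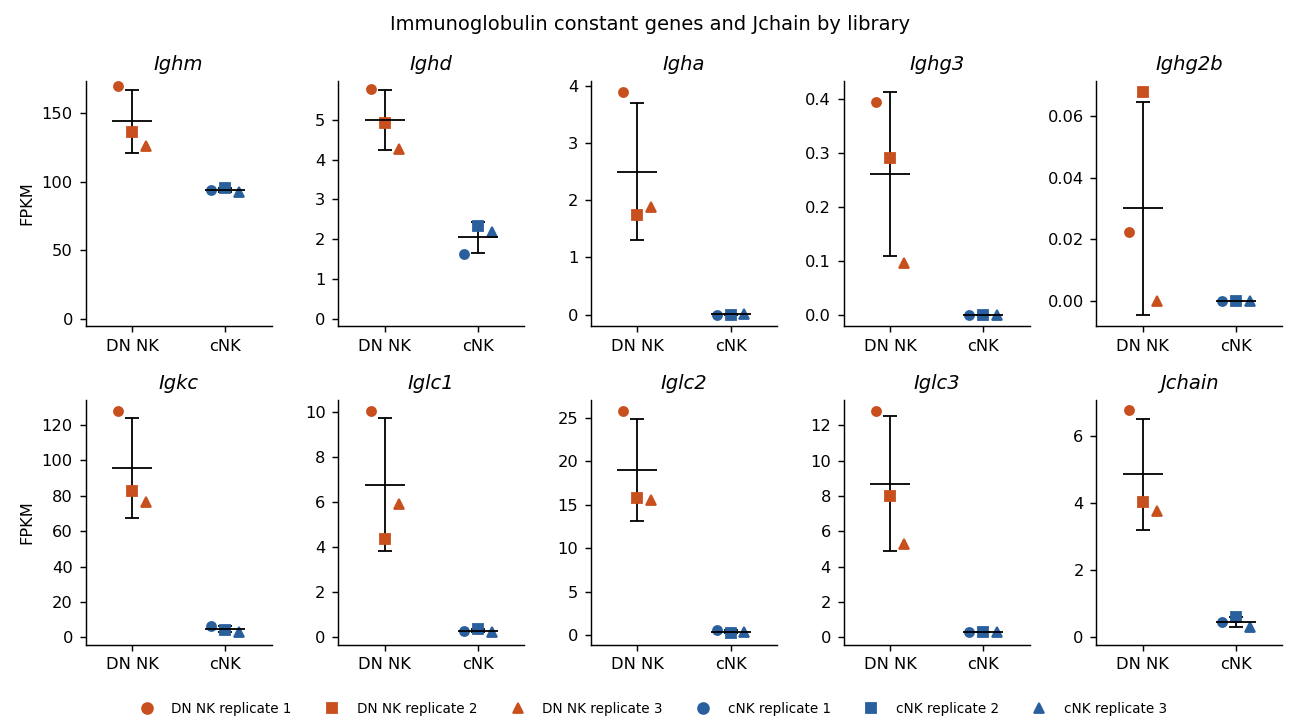
FPKM of each constant gene and Jchain in every library, with DN NK (orange) left of cNK (blue). Points are libraries, and bars are the mean and SD of 3 libraries. Ighm stayed between 92.4 and 95.6 FPKM in cNK, where Igkc did not exceed 6.34 FPKM.

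**Figure D2:**
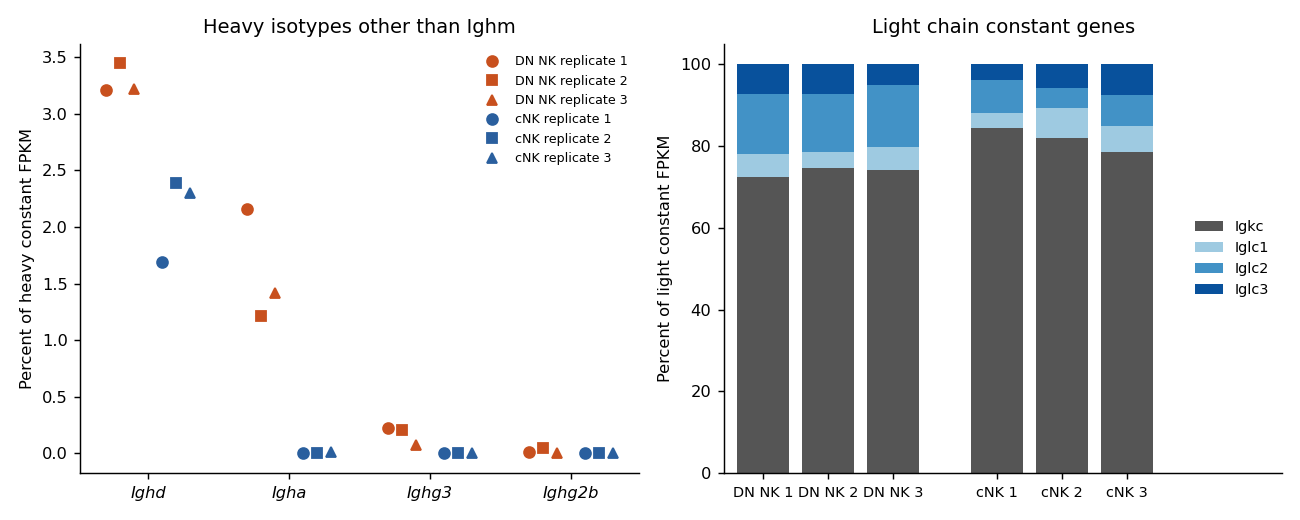
Left, percent of the summed heavy constant FPKM held by each isotype other than Ighm, by library. Right, percent of the summed light constant FPKM held by each light chain gene, by library. Igha held 1.21 to 2.16% in DN NK and at most 0.0155% in cNK.

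The summed V segments of every locus were higher in DN NK. Of the 200 single segments, 98 did not overlap between the groups, all of them higher in DN NK, and 102 overlapped. Of all rows of the table, 21.8% lay higher in DN NK without overlap and 20.6% lower. Among the 200 segments, 60 had 3 or fewer read pairs in both groups. Summed over the locus, Ighv had 95.1, 55.5 and 49.0 FPKM in DN NK, against 6.92, 6.76 and 1.79 FPKM in cNK. Igkv had 174.3, 97.5 and 107.8 FPKM in DN NK, against 10.1, 8.33 and 7.85 FPKM in cNK. Iglv had 17.3, 7.83 and 9.51 FPKM in DN NK, against 1.49, 0.838 and 0.375 FPKM in cNK. In each of the 3 loci the lowest DN NK library exceeded the highest cNK library.

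All 210 members were above 0 in at least 1 library, as were all 27763 rows, so no segment at 0 throughout is among them. Of the members, 203 were above 0 in some DN NK library and 98 in some cNK library. In DN NK only, 112 were found (53.3%, against 11.4% of all rows), and 7 in cNK only (3.33%, against 5.85% of all rows). The lowest DN NK library exceeded the highest cNK library for 107 members (45 Ighv, 50 Igkv, 3 Iglv and 9 constant genes and Jchain), and the reverse held for 0, while 21.8% of all rows of the table had DN NK above cNK in this way and 20.6% the reverse. Of the members, 42 passed the filter on low values (6 Ighv, 26 Igkv, 2 Iglv and 8 constant genes and Jchain), and 41 of them were higher in DN NK and 0 lower. At an unadjusted p under 0.05 edgeR also found 0 lower, as did DESeq2 and limma after adjustment. For 38 of the 42 the mean in cNK was under 1 FPKM. DN NK values were thus needed to admit them, which favours a call of higher in DN NK. Without the filter, all 210 members were tested and 91 were higher in DN NK (38 Ighv, 42 Igkv, 2 Iglv and 9 constant genes and Jchain) and 0 lower, where 15.3% of all rows were higher and 16.0% lower. At an unadjusted p under 0.05 in edgeR without the filter, 117 members (55.7%) passed, 0 of them lower, where 37.7% of all rows passed.

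Of the 200 V segments, 68 were at 0 in cNK with more than 3 read pairs in DN NK, and their bounds ran from at least 1.33-fold to at least 41.0-fold higher. A further 42 had 1 to 3 read pairs over the cNK libraries, with count ratios between 2.15 and 189. Only 30 had more than 3 read pairs in cNK, with a median count ratio of 4.30 (2.18 for the 13 Ighv and 7.81 for the 15 Igkv). The ratio was above 1 for 24 of the 30 and below 1 for 6, up to 71.1 for Igkv8-30 and down to Ighv14-2, which had 0 read pairs in DN NK and 4 in cNK. None of the 6 passed (edgeR without the filter, adjusted p = 0.150 for Ighv14-2). The remaining 60 had 3 or fewer in both groups and were given no fold.

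Among heavy segments Ighv1-81 led in DN NK, with 17.8, 9.37 and 6.23 FPKM, against 0, 0.185 and 0 FPKM in cNK. It rested on 292 read pairs in DN NK and 2 in cNK, a ratio of 157 (exact 95% binomial interval 43.1 to 1302, edgeR adjusted p = 0.000966). It alone made up 18.7, 16.9 and 12.7% of the Ighv FPKM of the DN NK libraries. Ighv1-26 had 7.33, 3.20 and 5.06 FPKM in DN NK, against 0.181, 0.569 and 0.095 FPKM in cNK, 18.2-fold higher (log2 4.19, edgeR adjusted p = 0.000403), and log2 5.08 without cNK replicate 2. Ighv1-53 had 8.25, 2.44 and 2.37 FPKM in DN NK, against 0.096, 0 and 0.206 FPKM in cNK, where it rested on 3 read pairs. Its ratio was 41.2 (exact 95% binomial interval 13.8 to 202.8, edgeR adjusted p = 0.00335). Ighv1-64 and Ighv2-9-1 were at 0 in every cNK library. Ighv1-64 was at least 38.9-fold higher in DN NK, at 4.90, 4.21 and 1.64 FPKM, and Ighv2-9-1 at least 22.4-fold higher, at 4.70, 0.808 and 1.27 FPKM. Ighv2-9-1 passed only in the test without the filter (edgeR adjusted p = 0.00674).

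Other heavy segments differed less or not detectably. Ighv1-23 had 2.05, 1.49 and 2.53 FPKM in DN NK, against 1.04, 0.454 and 0.206 FPKM in cNK, a log2 fold change of 1.87 (SE 0.51, edgeR adjusted p = 0.0133), which was 2.67 without cNK replicate 1. Ighv1-22 had 2.95, 1.38 and 1.24 FPKM in DN NK, against 0.669, 0.108 and 0 FPKM in cNK, and its adjusted p of 0.0437 became 0.113 in edgeR without the filter. Ighv6-6, singled out after its values were seen, had 1.01, 0.269 and 0.266 FPKM in DN NK, against 0.654, 0.863 and 0.243 FPKM in cNK. Its groups overlapped, with 14 read pairs in DN NK and 17 in cNK, and it did not pass (edgeR without the filter, log2 -0.20, SE 0.74, adjusted p = 0.884).

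The leading kappa segments of DN NK were near 0 in cNK. Igkv8-30 had 13.9, 7.17 and 7.64 FPKM in DN NK, against 0.393, 0 and 0 FPKM in cNK, 72.0-fold higher (log2 6.17, edgeR adjusted p = 0.00286). Its 4 cNK read pairs all lay in replicate 1, and without that library the fitted log2 value was 11.43, which then depends on the prior count. Igkv6-15 had 16.3, 4.66 and 6.20 FPKM in DN NK, against 0, 0.164 and 0 FPKM in cNK, with a ratio of 126 (exact 95% binomial interval 34.6 to 1049). Igkv8-21 had 5.49, 4.41 and 8.76 FPKM in DN NK, against 0, 0 and 0.102 FPKM in cNK, with a ratio of 189 (exact 95% binomial interval 33.5 to 7515). For each of the 3 the lowest DN NK library lay more than an order of magnitude above the highest cNK library. Igkv8-27 averaged 7.72 ± 3.09 FPKM in DN NK and 0.347 ± 0.159 FPKM in cNK, Igkv8-24 averaged 5.65 ± 0.952 FPKM in DN NK and 0.242 ± 0.339 FPKM in cNK, and Igkv1-117 averaged 8.64 ± 3.17 FPKM in DN NK and 0.289 ± 0.287 FPKM in cNK (SD, n = 3 each). Their folds were 21.6 for Igkv8-27, 23.4 for Igkv8-24 and 30.1 for Igkv1-117, all past the threshold. The log2 fold change of Igkv8-24 was 4.55, and 6.67 without cNK replicate 3, and that of Igkv1-117 was 4.91, and 5.88 without cNK replicate 1. Igkv5-48 and Igkv3-12 were at 0 in every cNK library. Igkv5-48 was at least 41.0-fold higher in DN NK, at 8.28, 2.82 and 1.60 FPKM, and Igkv3-12 at least 31.4-fold higher, at 5.22, 1.90 and 2.68 FPKM.

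Igkv14-111 was the exception among the tested members. It had 2.12, 1.85 and 1.88 FPKM in DN NK, against 1.76, 2.61 and 2.53 FPKM in cNK, and did not pass (log2 -0.18, SE 0.24, edgeR adjusted p = 0.535). The groups overlapped, and its 67 read pairs in cNK made it the only V segment with a mean of at least 1 FPKM there. It made up 17.5, 31.3 and 32.3% of the Igkv FPKM of the cNK libraries, the largest share in each. Igkv12-98 had 3.51, 0.982 and 1.63 FPKM in DN NK, against 1.10, 0.546 and 0.505 FPKM in cNK, with overlapping groups and a log2 fold change of 1.54 (edgeR adjusted p = 0.0387). Without DN NK replicate 1 that log2 fold change was 0.87 and no longer passed (adjusted p = 0.147).

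Of the lambda segments, Iglv1 had 13.1, 5.78 and 7.83 FPKM in DN NK, against 0.703, 0.421 and 0.375 FPKM in cNK, 17.8-fold higher (edgeR adjusted p = 6.01e-05). Iglv2 had 2.67, 1.42 and 1.22 FPKM in DN NK, against 0.595, 0.416 and 0 FPKM in cNK, with an edgeR adjusted p of 0.0421 that became 0.111 without the filter. Iglv3 had 1.54, 0.626 and 0.471 FPKM in DN NK, against 0.194, 0 and 0 FPKM in cNK, a ratio of 13.4 (exact 95% binomial interval 3.35 to 117), and passed in edgeR without the filter (adjusted p = 0.0367). Iglv made up 9.04, 7.43 and 8.11% of the summed light chain V FPKM in DN NK, against 12.9, 9.13 and 4.55% in cNK, so its share overlapped between the groups while its level did not.

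More V segments were found in DN NK than in cNK. Ighv segments above 0 numbered 84, 74 and 70 in the DN NK libraries, against 22, 30 and 14 in the cNK libraries. Igkv segments above 0 numbered 72, 75 and 73 in DN NK, against 24, 25 and 18 in cNK. The effective number of segments, the exponential of the Shannon entropy of their FPKM shares, was 32.4, 38.3 and 37.0 for Ighv in DN NK, against 15.1, 21.3 and 11.8 in cNK. For Igkv it was 35.2, 39.4 and 37.6 in DN NK, against 16.7, 13.9 and 10.5 in cNK. Neither measure overlapped between the groups, but the cNK libraries held few read pairs on these rows, 18.3 to 72.1 on Ighv where DN NK held 448 to 888. Drawn down to 19 read pairs per library, the expected number of Ighv segments was 13.3, 14.3 and 14.3 in DN NK, against 11.6, 13.7 and 14 in cNK, and the groups overlapped. That depth was set by cNK replicate 3, and so few draws cannot decide whether cNK held a narrower set of Ighv segments. At 70 read pairs cNK replicates 1 and 2 stood at 21.6 and 29.8 Ighv segments. DN NK replicates 2 and 3 stood at 32.7 and 32.3 with fewer read pairs, 62 and 65. DN NK replicate 1 stood at 26.8 with 54 read pairs and at 32.6 with 76. Drawn down to 77 read pairs, the expected number of Igkv segments was 32.0, 34.1 and 33.0 in DN NK, against 22, 24.2 and 18 in cNK, with no overlap.

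**Figure D3:**
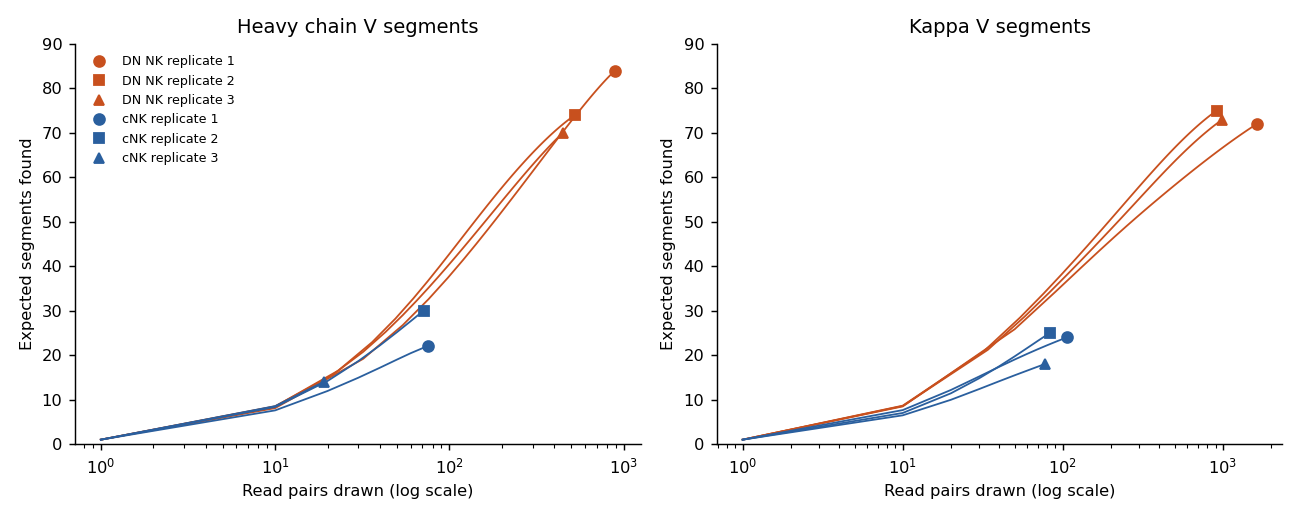
Expected number of V segments found (vertical axis) when a given number of read pairs is drawn from each library (horizontal axis, log scale), for Ighv (left) and Igkv (right). Each curve is a library and ends at its own total. At 77 read pairs the Igkv curves of DN NK stood at 32.0 to 34.1 segments and those of cNK at 18 to 24.2.

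The DN NK libraries resembled each other in the segments they used. Ighv1-81 was the highest Ighv segment in all 3, and the 10 highest held 51.7 to 59.96% of the Ighv FPKM in DN NK, against 67.4 to 87.3% in cNK. Ighv1-26, Ighv1-53, Ighv1-64 and Ighv1-81 were among the 10 highest in all 3 DN NK libraries, and Ighv1-23, Ighv6-3 and Ighv6-6 in all 3 cNK libraries. For Igkv, Igkv1-117, Igkv1-135, Igkv12-44, Igkv6-15, Igkv8-24, Igkv8-27 and Igkv8-30 were among the 10 highest in all 3 DN NK libraries, and Igkv1-110, Igkv12-98, Igkv14-111 and Igkv5-39 in all 3 cNK libraries. Across the 106 Ighv rows, Spearman's rho between libraries was 0.65 to 0.69 within DN NK, 0.19 to 0.36 within cNK and 0.06 to 0.24 between the groups. Across the 91 Igkv rows it was 0.82 to 0.83 within DN NK, 0.39 to 0.50 within cNK and 0.26 to 0.45 between the groups. Segments are not independent replicates, many share reads, and the cNK values rest on few read pairs, so these are descriptions.

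By family, Ighv1, the largest with 56 of the 106 rows, held 70.8 ± 3.0% of the Ighv FPKM in DN NK and 49.9 ± 12.9% in cNK (SD, n = 3 each). The 4 rows of Ighv6 held 3.13 ± 0.407% in DN NK and 24.7 ± 5.45% in cNK. The 7 rows of Igkv8 held 23.2, 24.4 and 28.5% of the Igkv FPKM in DN NK, against 7.38, 9.61 and 20.0% in cNK, and the 4 rows of Igkv14 held 2.22 ± 0.138% in DN NK and 27.0 ± 8.26% in cNK. The shares of Ighv6 and of Igkv14 did not overlap between the groups, but their summed levels did. For Ighv6 the lowest DN NK library had 1.52 FPKM and the highest cNK library 1.61 FPKM. For Igkv14 the lowest DN NK library had 2.23 FPKM and the highest cNK library 2.61 FPKM. The larger shares in cNK thus do not show higher levels of these families there. Igkv14-111 was the only Igkv14 row above 0 in cNK. Along the heavy locus, the third of the segments farthest from the J segments held 43.7 ± 5.33% of the Ighv FPKM in DN NK and 21.5 ± 4.94% in cNK. Along the kappa locus, the third nearest to the J segments held 50.0 ± 2.07% of the Igkv FPKM in DN NK and 29.1 ± 6.99% in cNK, and the third farthest away, which holds Igkv14-111, held 34.5 ± 2.20% in DN NK and 64.8 ± 3.76% in cNK. Rows annotated as pseudogenes, which cannot encode a chain, held 1.01, 0.532 and 1.47% of the Ighv FPKM in DN NK, against 2.99, 1.89 and 3.67% in cNK.

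**Figure D4:**
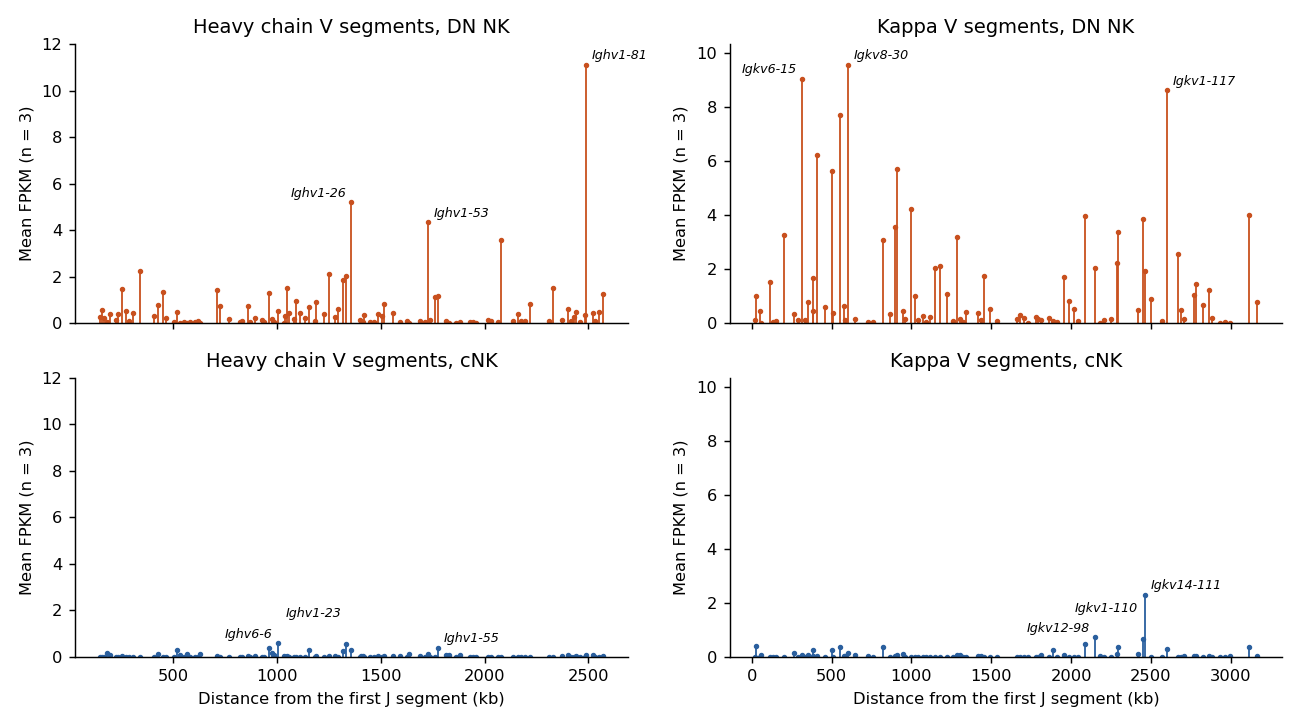
Mean FPKM of each V segment (vertical axis, n = 3 libraries) against its distance from the first J segment of its locus (horizontal axis, kb), for DN NK above cNK, with the 3 highest segments of each panel named. Each pair of panels has 1 scale. Ighv1-81 reached a mean of 11.1 FPKM in DN NK, and Igkv14-111 a mean of 2.30 FPKM in cNK.

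DN NK replicate 1 was the highest of the 3 DN NK libraries for 114 of the 210 members (54.3%). Among rows tested it was the highest for 34 of the 42 members (81.0%), against 28.6% of all rows tested. Its level relative to the mean of replicates 2 and 3 was 1.82 for the Ighv sum, 1.70 for the Igkv sum, 2.00 for the Iglv sum, 1.65 for the light constant genes and 1.30 for the heavy constant genes. The summed B cell markers stood at 1.31 and the summed plasma cell markers at 1.06 by the same measure. With the filter, 37 to 40 members were higher in DN NK when any single library was left out, and without it 71 to 85. In the same runs with the filter, 3287 to 3561 of all 11690 rows were higher and 3259 to 3483 lower. The matching count of all rows without the filter is not given here. The summed member level without Ighm was 480.4, 282.5 and 279.7 FPKM in DN NK, against 28.1, 23.8 and 16.5 FPKM in cNK, so the gap to cNK was present in the other two DN NK libraries as well.

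B cell markers moved with the members. Of 17 examined, all 17 were higher in DN NK in edgeR without the filter, where 15.3% of all rows were higher and 16.0% lower. The 10 that passed the filter were higher too. For 9 of them the cNK mean was under 1 FPKM, so DN NK values were needed to admit them. The summed level of the 17 was 48.6 to 66.0 FPKM in DN NK and 3.37 to 3.75 FPKM in cNK. None was at 0 in all cNK libraries. Cd79a, which encodes a signalling chain of the B cell receptor, averaged 11.8 ± 1.33 FPKM in DN NK and 0.292 ± 0.0328 FPKM in cNK, and Pax5, the B lineage transcription factor, averaged 2.31 ± 0.734 FPKM in DN NK and 0.0449 ± 0.0151 FPKM in cNK (SD, n = 3 each). In that fit without the filter the median log2 fold change of the 17 was 5.45, beside 4.40 for Igkc, 5.59 for Iglc2, 1.29 for Ighd and 0.61 for Ighm. The part of B cells in the immunoglobulin levels was not tested. Of 11 plasma cell markers, 7 were tested, 6 were higher and Prdm1, a regulator of plasma cells that NK cells also express, was lower, with sums of 145.6 to 156.7 FPKM in DN NK and 104.7 to 109.6 FPKM in cNK. Of 14 T cell markers, 8 were tested, 7 were higher and 1 lower. In edgeR without the filter 11 of the 14 were higher and 1 lower, with a median log2 fold change of 2.71. A rise was thus not particular to B cell markers. Among tested markers, 2 of plasma cells and 2 of T cells had a cNK mean under 1 FPKM. Of 11 markers of monocytes, macrophages and dendritic cells, 3 were tested, 1 was higher and 1 lower, and of 7 of plasmacytoid dendritic cells, 5 were tested, 1 was higher and 2 lower.

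**Figure D5:**
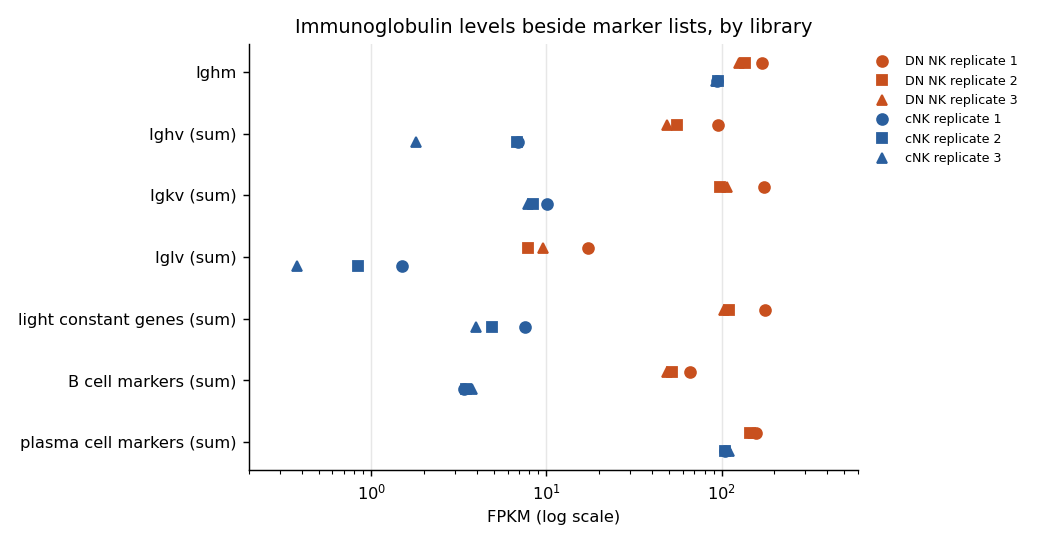
FPKM (log scale) of Ighm, of the summed V segments and light constant genes, and of the summed B cell and plasma cell markers, by library, with DN NK (orange) above cNK (blue) in each line. Ighm and the plasma cell markers lay close between the groups, while the V, light chain and B cell marker sums lay further apart, with no overlap in any line.

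Other genes of the antibody pathway gave a mixed picture, where 30.8% of all rows tested were higher and 30.9% lower. For V(D)J recombination, 10 genes were listed and 8 tested, of which 1 was higher and 5 lower. Rag1, the recombinase subunit, averaged 0.0202 ± 0.0193 FPKM in DN NK and was at 0 in cNK, and Rag2 and Dntt were not analysed here. Of 11 class switch and hypermutation genes, 9 were tested, 4 were higher and 1 lower. Of 18 B cell receptor signalling genes, 15 were tested, 11 were higher and 3 lower. Of the 15, 4 had a cNK mean under 1 FPKM. Of 14 transcription factors of immunoglobulin genes, 12 were tested, 7 were higher and 4 lower. For 5 of the 12 the cNK mean was under 1 FPKM, so DN NK values were needed to admit them. Irf4, which drives light chain and plasma cell programmes, was such a gene. It averaged 13.8 ± 1.88 FPKM in DN NK and 0.535 ± 0.0735 FPKM in cNK (log2 4.74, edgeR adjusted p = 8.01e-07). Its call was thus favoured by the filter. Of 14 immunoglobulin receptors and transporters, 5 were tested, 2 of them with a cNK mean under 1 FPKM. Fcmr and Fcer2a, receptors for IgM and IgE on B cells, were higher, and Fcgr3, Fcgr2b and Fcer1g, which serve IgG binding and signalling, were lower in DN NK. Of 12 listed J segments and surrogate light chain genes, 0 passed the filter, and in edgeR without it Ighj4 and Vpreb3 were higher.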

How the data were processed

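Poly(A) RNA was made into TruSeq v2 libraries and read as pairs of 150 bp, per the labels' protocols. HISAT, StringTie, edgeR and the build GRCm38 stand without versions in the submitters' processing notes. The authors deposited an FPKM value and a count per gene row and library, per the file headers. In rows with 1 transcript, 89.1 to 91.1% of the low counts equal the FPKM multiplied by transcript length and a factor of the library, after rounding up. The deposited counts were for that reason handled as estimated counts that the authors derived from coverage, with 1 read pair worth about 3.77, so read pairs, floors and intervals are approximate and cover counting error only.

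All 210 members had the same span and strand in GENCODE M21. Rows that reached 1 FPKM in 3 or more libraries were tested with edgeR 4.0.16 in R 4.3.3 (quasi-likelihood, robust, TMM factors 0.972 to 1.03, 2-sided, group as the only term), with Benjamini-Hochberg adjustment over all rows. The biological coefficient of variation was 13.5%. A second fit used no filter. Where cNK was at 0, folds are bounds against 3 read pairs over the group. With 1 to 3 read pairs they are ratios of summed counts. The fit was tested on simulated data. Alternatives were other scalings, filters and tools (DESeq2 1.42.0, limma 3.58.1), counts in read pairs, and leaving out each library. Named members were all constant genes and Jchain, the 6 Ighv, 6 Igkv and 3 Iglv segments with the highest mean, and per locus the V segments with the largest and smallest fold among those with a mean of at least 1 FPKM. Members and lists were chosen with earlier results of these data known.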

Additional observations from a re-analysis of the deposited data

How the results depend on the processing

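No named member changed direction under any alternative run. Of 452 alternative values of the 30 named members, 423 kept their side of the threshold and 29 no longer passed it, all of them of Iglv2, Iglv3, Ighv1-22, Ighv2-9-1, Igkv12-98 or Igkv5-48. Members higher in DN NK numbered 91 without a filter, 72 with edgeR's own filter and 4 where a mean of 5 FPKM was asked for, which admitted fewer members. That last filter left 23 pathway genes higher, and 2278 rows of the table higher and 2336 lower. For edgeR's own filter the share of all rows is not given here. The members held 0.150% of the library FPKM in DN NK and 0.0333% in cNK, a ratio of 4.49, and 0.0518% of the estimated counts in DN NK and 0.0219% in cNK, a ratio of 2.36. By estimated counts the heavy locus held 0.0363% in DN NK and 0.0210% in cNK (ratio 1.73, against 2.30 by FPKM), the kappa locus 0.0114% in DN NK and 0.000660% in cNK, and the lambda locus 0.00268% in DN NK and 9.99e-05% in cNK. On that scale the mean shares were 94.2% in DN NK and 97.8% in cNK for Ighm, 2.25% in DN NK and 0.00772% in cNK for Igha, and 16.8% in DN NK and 8.02% in cNK for Iglc2. Segments of at least 1 FPKM averaged 16.3 in DN NK and 0.333 in cNK for Ighv, and 30 in DN NK and 2 in cNK for Igkv, and Igkv segments of at least 0.1 FPKM averaged 69.7 in DN NK and 18.7 in cNK. At equal read pairs the means were 13.9 in DN NK and 13.1 in cNK for Ighv, and 33.0 in DN NK and 21.4 in cNK for Igkv.

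The deviations of same-numbered libraries correlated at 0.046, 0.036 and 0.16, and those of differently numbered libraries at -0.098 to 0.056. With 3 libraries per group these values cannot decide whether libraries of the same number were prepared together. The sources used here do not say. With the replicate number as a block, 41 members were higher with the filter and 63 without it, for which the shares of all rows are not given here. Not every library correlated best with its own number. The read pairs in cNK limit every statement on single V segments there.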
